A study of Mus musculus with 6 samples.

Results

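The insulin genes Ins1 and Ins2 and the gene of islet amyloid polypeptide, Iapp, were followed across single wells of mouse islet cells, as 3 of 52542 gene rows chosen by name and not by a measured value. Wells were single-cell sorts of dissociated islets on 6 plates of 384 wells, read by MARS-seq, a method that tags the 3′ end of each captured mRNA with a molecular identifier (UMI) and counts the tags. All plates came from male Sox9-CreER; tdTomato mice, in which tamoxifen-induced recombination marks cells in which the promoter of Sox9, known from pancreatic ducts, was active, and their descendants. Tamoxifen (8 mg) was given from 10 weeks of age, the operation was at 12 weeks, and islets were taken 4 weeks later. Sham 1 (sham operation) held tomato-positive wells, sham 2 held positive wells in its first 4 rows and negative wells in the rest, and sham 3 held tomato-negative wells. After partial pancreatectomy (ppx), the removal of part of the organ, ppx 1 was tomato-positive and ppx 2 and ppx 3 were tomato-negative. The design text gives 2300 cells from 6 pancreata, and the labels do not tie a plate to a mouse, so the spread between plates may be technical, biological or both. The rows of the mixed plate were not separated.

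Plates held 1250861 to 1508513 UMIs, and 2115 of 2304 wells passed the filters of at least 500 UMIs and at most 20% mitochondrial UMIs, 339 to 362 per plate. No well name occurred on more than 1 plate. The tomato-positive plates held 19 and 13 beta-like wells and 204 and 210 delta-like wells, against 187 to 284 and 7 to 17 on the tomato-negative plates. Wells were grouped by clusters made without the 3 genes (beta-like 946, delta-like 508, alpha-like 150, endothelial-like 52, macrophage-like 18) and by hormone content. Clusters of 404 wells stayed unnamed, and another of 37, called stromal-like, also carried a duct gene among its leading genes and is not used. A well counted as high in insulin at 3% or more of its UMIs from Ins1 plus Ins2, in somatostatin (Sst) at 1%, and in glucagon (Gcg) or pancreatic polypeptide (Ppy) at 2%. The insulin threshold lay in a thin stretch: 34 wells had 2 to 5%, the well just inside had 3.05% and the one just outside 2.97%. Of the 946 beta-like wells, 940 were high in insulin alone. On each plate 12 or 13 of 14 further beta markers, such as Ucn3, Mafa and Slc2a2, had a UMI in those wells, with a summed level of 8277 to 12197 CPM after ppx and 9745 to 11050 CPM after sham.

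Insulin is made as a precursor, cut to the mature hormone in secretory granules of the beta cell and released when glucose rises. Mice carry a pair of insulin genes: Ins2 has the exon structure of the insulin gene of other mammals, and Ins1 is a copy that arose by retroposition and lacks an intron. Iapp encodes amylin, a peptide stored in the same granules and released with insulin. In mouse islets, Iapp is also known from somatostatin-producing delta cells.

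The near-identity of the insulin genes matters for every split of insulin counts below, so the 3′ parts of their coding sequences, the end that the method reads, are given 5′ to 3′ with the bases that differ in capitals. They are coding bases 133 to 327 of Ins1 and 133 to 333 of Ins2, stop codon included (GENCODE M21, GRCm38, the assembly also called mm10).
Ins1: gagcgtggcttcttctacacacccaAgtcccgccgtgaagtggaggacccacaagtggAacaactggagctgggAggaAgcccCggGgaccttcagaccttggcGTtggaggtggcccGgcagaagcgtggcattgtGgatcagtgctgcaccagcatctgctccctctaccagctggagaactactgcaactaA
Ins2: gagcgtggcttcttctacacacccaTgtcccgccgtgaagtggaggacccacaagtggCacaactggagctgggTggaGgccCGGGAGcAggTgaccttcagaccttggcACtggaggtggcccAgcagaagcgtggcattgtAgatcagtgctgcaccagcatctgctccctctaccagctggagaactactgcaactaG
The shown parts differ by 11 substitutions and by 6 bases that Ins2 has and Ins1 lacks. Over the 333 aligned columns of the whole coding sequences, 302 were identical (90.7%), with 25 substitutions in all. The longest run without a difference was 56 bases, coding bases 277 to 332 of Ins2, which ends 55 bases before the end of the annotated transcript. The last 150 bases of the Ins2 transcript matched the Ins1 transcript at 91.4% over the best local alignment. Ins1 lies on chromosome 19 at 52264297 to 52265476 on the plus strand with 2 exons. The Ins2 transcript lies on chromosome 7 at 142678659 to 142679726 on the minus strand with 3 exons. Iapp lies on chromosome 6 at 142298423 to 142303961 on the plus strand with 3 exons, overlapped by Slco1a5 on the other strand, which had 7 UMIs in all wells. RefSeq ends Ins1 461 bases before GENCODE does, at 52265015, so the 3′ UTR is 65 or 526 bases, against 54 for Ins2. How the authors counted reads that fit both genes is not given in the sources used here, and the split between Ins1 and Ins2 is uncertain to that extent.

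In beta-like wells Ins1 and Iapp were nearly level across the plates, while Ins2 was not. Ins1 took 15.2%, 10.6% and 14.96% of all UMIs on sham 1, sham 2 and sham 3, and 12.3%, 11.03% and 12.5% on ppx 1, ppx 2 and ppx 3. Iapp took 5.61%, 6.48% and 5.66% after sham and 6.16%, 7.34% and 7.06% after ppx. The highest plate stood 1.43-fold above the lowest for Ins1 and 1.31-fold for Iapp. Both genes overlapped between the operations. Ins2 took 11.8%, 12.2% and 10.4% on the sham plates, a narrow range, and 19.7%, 4.72% and 2.23% on the ppx plates, an 8.85-fold range with the highest and the lowest plate of the series in 1 group. The coefficient of variation over 6 plates was 60.7% for Ins2, 15.1% for Ins1 and 11.2% for Iapp.

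Ins1 plus Ins2 therefore took 26.9%, 22.8% and 25.4% of UMIs after sham and 32.0%, 15.7% and 14.8% after ppx. The Ins2 share of insulin UMIs was 43.6%, 53.5% and 41.0% after sham and 61.5%, 29.95% and 15.1% after ppx. UMIs at the 3′ end carry no correction for length or capture, so this share is compared between wells and plates and is not a ratio of transcripts. Per 100 insulin UMIs, Iapp stood at 20.8, 28.5 and 22.3 after sham and at 19.2, 46.6 and 47.8 after ppx. On ppx 2 and ppx 3, where Ins2 was low, Iapp per insulin UMI was highest. Ins2 is part of the denominator, so a low Ins2 raises this ratio by itself. As a share of Ins1 plus Iapp UMIs, Iapp took 27.0%, 38.0% and 27.4% after sham. After ppx that share was 33.3%, 39.9% and 36.0%, so sham 2 lay between ppx 2 and ppx 3. Median depths of the beta-like wells were 4848, 4565.5 and 4885 UMIs after sham and 4307, 3853.5 and 3975 after ppx, and median mitochondrial shares were 8.22 to 9.09% and 8.25 to 10.8%. Depth and mitochondrial share moved with the plates of low Ins2, and their part was not tested. Among marker lists of other cells in the beta-like wells, summed alpha markers stood at 8638 to 9571 CPM after sham and 7833 to 8321 after ppx (6 to 11 of 11 with a UMI), and duct markers at 452 to 470 and 514 to 556 CPM (3 to 5 of 8). Delta markers stood at 815 to 1879 and 643 to 3262 CPM (4 to 7 of 10), pancreatic polypeptide cell markers at 1290 to 1951 and 1146 to 3048 CPM (3 to 6 of 6), and epsilon cell markers at 0 to 82.2 and 0 to 321 CPM (0 to 1 of 4). The lists for erythroid, Schwann, stromal, lymphoid, macrophage, endothelial and acinar cells each summed to at most 91.3 CPM. The part of these markers in the Ins2 values was not tested. The mix of the beta-like clusters also moved: 63.1% of ppx and 41.7% of sham wells lay in the one led by Nupr1 and Cox6a2. Within each of these clusters the Ins2 share was close to that of the plate, for example 15.3% and 14.5% on ppx 3 and 53.8% and 53.3% on sham 2.

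**Figure D1:**
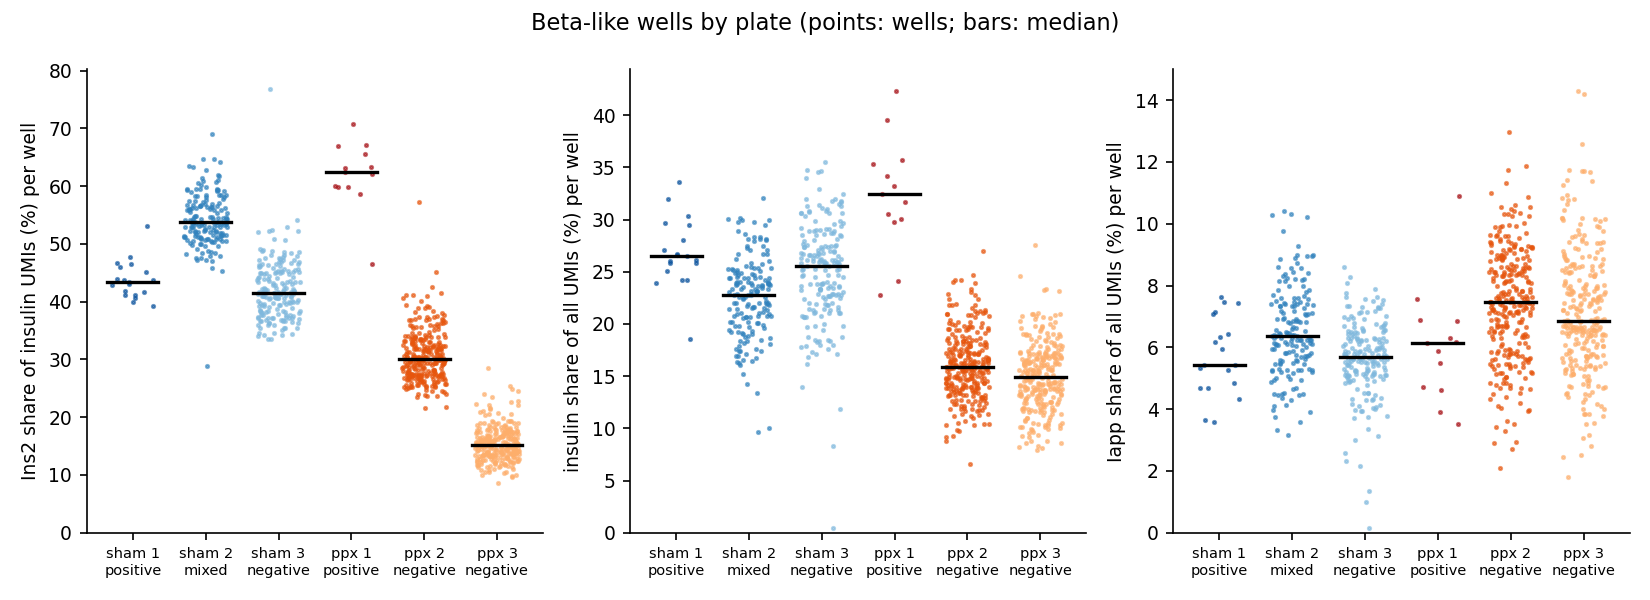
Ins2 share of insulin UMIs, insulin share of all UMIs and Iapp share of all UMIs (y axes, percent per well) in beta-like wells of each plate (x axis, with its tomato sort); points are wells and bars their median. The Ins2 share steps from plate to plate, from a median of 15.2% on ppx 3 to 62.5% on ppx 1, while the Iapp share overlaps on all plates.

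The wells of a plate kept close to its Ins2 share. The SD of the share over beta-like wells was 3.29, 4.62 and 5.14 points on the sham plates and 5.84, 4.39 and 2.98 points on the ppx plates. That is more than counting alone gives, for which the binomial SD was 1.34 to 2.04 points, and less than the SD of 16.6 points between plates. No beta-like well of ppx 3 reached the lowest well of sham 1, sham 2, sham 3 or ppx 1, where lowest and highest were 8.54% and 28.5% on ppx 3 and the lowest wells elsewhere 39.2%, 28.8%, 33.6% and 46.4%. Taken in pairs, a well of ppx 2 lay above a well of ppx 3 in 99.8% of pairs, and a well of ppx 1 above a well of ppx 2 in nearly all (99.97%). Sham 1 and sham 3, whose shares differ by few points, were in order in 63.0% of pairs.

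The range of Ins2 was wide among genes above a floor of abundance. The set was not matched to Ins2 itself (22345 to 192424 CPM), and its rarer genes carry more counting error. Of 1188 genes with a mean of at least 100 CPM in beta-like wells, Ins2 ranked 13 by its 8.61-fold range of TMM-scaled CPM over 6 plates, where the median gene had a log2 range of 0.81. The 12 with wider ranges included other hormone and plasma cell genes, Gcg, Sst, Igkc, Igha and Jchain, next to Pdyn, Fam151a and Glb1l. Within the sham plates Ins2 ranked 980 with a 1.14-fold range, and within the ppx plates it ranked 9. Over the plates that were not tomato-positive its range was 5.56-fold, rank 7. Ins1 (1.45-fold) and Iapp (1.40-fold) ranked 957 and 1018 over all plates.

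The first comparison asked whether the operation changed these genes in beta-like wells. None of the 3 passed in edgeR's quasi-likelihood test with Benjamini-Hochberg adjustment over 7986 genes, where 0.614% of genes were called, 34 higher (0.426%) and 15 lower (0.188%) after ppx. Scaled to CPM, Ins1 stood at 143627, 107943 and 156669 on the sham and 120383, 111461 and 125879 on the ppx plates (log2 fold change -0.21 ± 0.14, SE, adjusted p = 0.676). Ins2 stood at 111132, 124239 and 108894 against 192424, 47663 and 22345 CPM (-0.33 ± 0.27, edgeR adjusted p = 0.762). Iapp stood at 53026, 66057 and 59221 against 60129, 74148 and 70889 CPM (0.18 ± 0.13, edgeR adjusted p = 0.736). For Ins2 the ppx values lie on both sides of all sham values. Single plates decided its call: without ppx 1 the Ins2 change was -1.79 and passed (adjusted p = 6.4e-06), without ppx 3 it was 0.12 (adjusted p = 0.944) and without ppx 2 -0.02 (adjusted p = 0.999). Without both tomato-positive plates it was -1.77 (adjusted p = 0.00176), from 124239 and 108894 to 47663 and 22345 CPM. With the tomato sort as a covariate and the mixed plate left out, the Ins2 change was -0.73 ± 0.22 and did not pass (SE, 5 plates, edgeR adjusted p = 0.140). DESeq2 gave adjusted p = 0.999 for each of the 3, with a larger SE of 0.77 for Ins2.

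Exact two-sided permutation of plate labels, which cannot go below p = 0.1 for 3 plates against 3, was run on 4 ratios. The ratios share counts of the same genes, so they are not separate evidence. The Ins2 share was 35.5% ± 23.7 after ppx and 46.0% ± 6.60 after sham (SD, n = 3 each, difference -10.5 points, exact permutation p = 0.5). Insulin took 20.8% ± 9.70 against 25.03% ± 2.10 of UMIs (n = 3 each, -4.18 points, exact permutation p = 0.4). Iapp per 100 insulin UMIs was 37.9 ± 16.2 against 23.9 ± 4.05 (n = 3 each, exact permutation p = 0.4), and Iapp took 6.85% ± 0.617 against 5.91% ± 0.492 of UMIs (n = 3 each, 0.937 points, exact permutation p = 0.2). All 4 had an adjusted p of 0.5, and the plates of both operations overlapped in each ratio. The tomato sorts went apart: between the positive plates the Ins2 share was 17.9 points higher after ppx, and between the negative plates, which are sham 3 against ppx 2 and ppx 3, the difference was -18.5 points. For insulin they were 5.09 and -10.1 points, for Iapp per 100 insulin UMIs -1.59 and 24.9, and for the Iapp share 0.550 and 1.54 points. Without ppx 1 the differences were -23.5 points in the Ins2 share and 23.4 in Iapp per 100 insulin UMIs (exact permutation p = 0.1 each, n = 3 against 2, the smallest possible). Insulin then differed by -9.77 points (exact permutation p = 0.1), against -1.63 points without ppx 2 and -1.14 without ppx 3. Without ppx 3 the Ins2 share differed by -0.311 points and Iapp per 100 insulin UMIs by 9.06, and without sham 2 the Ins2 share differed by -6.80 points.

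The second comparison asked whether beta-like wells of tomato-positive plates differ, with the operation as covariate and the mixed plate left out. Ins2 was the only member to pass, where edgeR called 0.104% of 8685 genes, 5 higher (0.0576%) and 4 lower (0.0461%). On the positive plates it took 11.8% (sham 1) and 19.7% (ppx 1) of UMIs, and on the negative plates 10.4% (sham 3), 4.72% (ppx 2) and 2.23% (ppx 3), so the groups did not overlap, with sham 1 and sham 3 close to each other. The log2 difference was 1.66 ± 0.22 (SE, n = 2 and 3 plates, edgeR adjusted p = 7.0e-10), beside a median of -0.18 over all genes tested. The call rested on single plates and on the tool, and the SE in DESeq2 was 0.51. It was lost without ppx 1 (0.09, adjusted p = 0.983), without sham 1 (2.56, adjusted p = 0.712), without ppx 3 (1.22, adjusted p = 1.00) and in DESeq2 (1.74, adjusted p = 1.00). Ins1 stood at 0.10 ± 0.22 and Iapp at -0.08 ± 0.21 (edgeR adjusted p = 0.993 each). In a model added after seeing the data, the interaction of operation and tomato sort was 2.45 ± 0.76 for Ins2 (SE, 5 plates, edgeR adjusted p = 0.778), 0.17 ± 0.18 for Ins1 and -0.09 ± 0.16 for Iapp. No gene passed there, and 435 of 9686 genes had an unadjusted p under 0.05.

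Genes that act around the hormones were read from 3 lists. Of the insulin gene regulators, 13 of 14 were tested for the operation in beta-like wells and none passed, in edgeR or DESeq2, nor had any an unadjusted p under 0.05. Their median log2 change was -0.20, beside -0.01 over all genes, and 2 of 13 had values above 0. The smallest p belonged to Insm1, a zinc finger factor of endocrine cells (-0.27 ± 0.14, edgeR adjusted p = 0.557), Nkx6-1, a beta cell homeobox factor (-0.24 ± 0.14), and Neurod1, a helix-loop-helix factor that binds the insulin promoter (-0.24 ± 0.15). Of 17 prohormone processing and granule genes, none passed in either tool, and 5 had an unadjusted p under 0.05 in edgeR and 4 in DESeq2. Over all 7986 genes tested, 758 had an unadjusted p under 0.05 in edgeR and 95 in DESeq2. Pam, which amidates peptides such as amylin, stood at 0.53 ± 0.15 (edgeR adjusted p = 0.0811), P4hb, a protein disulfide isomerase, at 0.43 ± 0.13 (adjusted p = 0.130), and Slc30a8, the zinc transporter of the insulin granule, at -0.36 ± 0.14 (adjusted p = 0.349). Pam passed without sham 1 (0.66, edgeR adjusted p = 0.0214). The list's median was 0.07. Of the receptors, signalling and breakdown genes, 6 of 10 were tested, none passed or had an unadjusted p under 0.05, and the median was -0.02, with Ramp1, a subunit of the amylin receptor, at -0.89 ± 0.53 (edgeR adjusted p = 0.641).

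For the tomato sort, none of 13 regulators, 17 granule genes and 7 receptor genes passed in edgeR or DESeq2. Their medians were -0.42, -0.18 and -0.51, beside -0.18 over all genes, and 1, 2 and 0 of them had an unadjusted p under 0.05 in edgeR. Over all 8685 genes tested, 492 had one.

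Nearly all alpha-, delta-, endothelial- and macrophage-like wells held insulin UMIs. Wells with insulin below the threshold took 0.372%, 0.504% and 0.621% of their UMIs from insulin after sham and 0.626%, 0.354% and 0.263% after ppx. That is 2.05 to 4.45% of the share that insulin took of the whole plate. After thinning each kept well to 500 UMIs, 84.7% of alpha-like (95% exact interval 77.9 to 90.02), 90.6% of delta-like (87.7 to 93.0), 98.1% of endothelial-like (89.7 to 99.95) and 100% of macrophage-like wells (81.5 to 100) still had an insulin UMI. Unthinned, the shares were 100%, 99.8%, 100% and 100%, at median depths of 3471.5, 1598.5, 777.5 and 1429 UMIs. Endothelial cells and macrophages are not known to express insulin genes, so a UMI in a well does not show that its cell does. Intervals cover counting error only.

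The Ins2 share in these wells followed the plate. In insulin-low wells it was 44.0%, 57.3% and 43.1% after sham and 61.4%, 30.9% and 14.6% after ppx, in the order of plates seen in beta-like wells. Against the insulin-only wells of the same plate it differed by 0.661 points ± 1.87 (SD, n = 6 plates, 3 of 6 above 0, exact sign-flip p = 0.469, smallest possible 0.0313). At a threshold of 6% for insulin and correspondingly higher ones for the other hormones the difference was 3.19 points (exact sign-flip p = 0.0625). Among the delta-, alpha-, endothelial- and macrophage-like wells there were 16 pairs of class and plate with at least 50 insulin UMIs. In 14 the share lay within 10 points of that of the plate's beta-like wells, with a median distance of 4.14 points, and in 9 the 95% interval held the beta-like share. The farthest were endothelial-like wells of sham 2, at 68.8% against 53.5%, and alpha-like wells of ppx 1, at 74.5% against 61.5%. The alpha-like class held 3 wells high in insulin, and the 4 wells of ppx 1 high in glucagon alone stood at 64.1% (51.1 to 75.7). Delta-like wells read 48.1%, 58.8% and 44.4% after sham and 61.9%, 32.9% and 18.5% after ppx. On every plate they lay above the beta-like share, by 0.42 to 5.25 points, and on sham 1 and sham 2 their interval did not hold it. Alpha-, endothelial- and macrophage-like wells lay on both sides. Even the 32 wells under 100 UMIs, which the depth filter leaves out, stood at 46.2%, 65.0% and 31.9% and at 61.5%, 30.8% and 10.5%, from 13 to 47 insulin UMIs per plate.

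**Figure D2:**
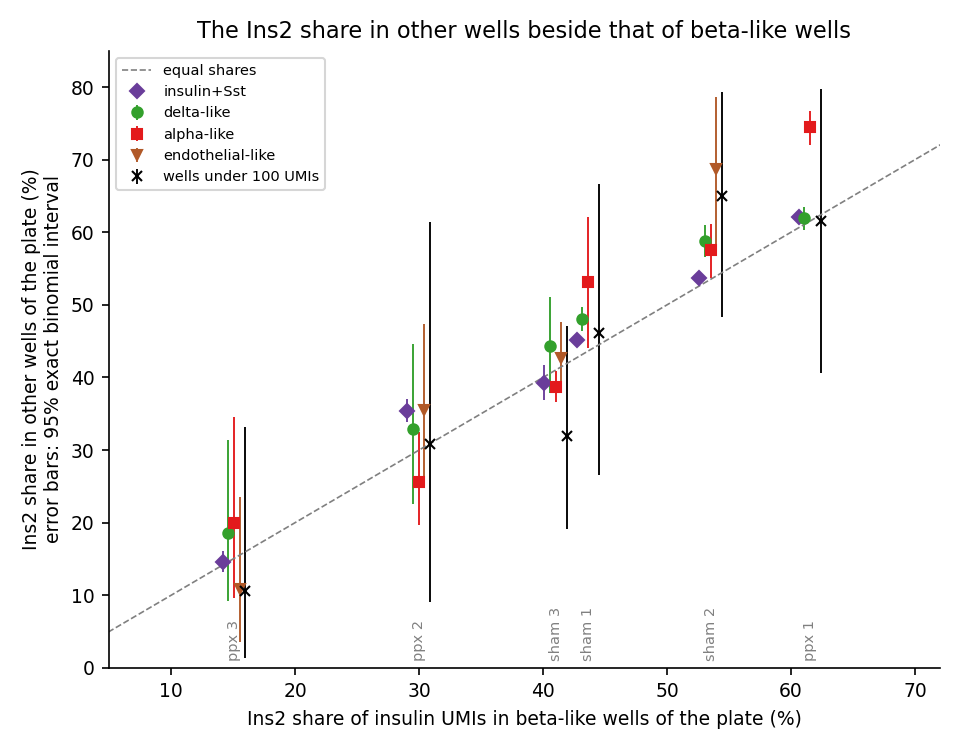
Ins2 share of insulin UMIs in wells high in insulin and Sst, in delta-, alpha- and endothelial-like wells and in wells under 100 UMIs (y axis, percent, with 95% exact binomial intervals) against the share in beta-like wells of the same plate (x axis, percent; symbols are shifted sideways by up to 0.9 points). Most symbols lie near the line of equal shares, from 15.1% on ppx 3 to 61.5% on ppx 1.

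In wells of other types the number of insulin UMIs rose less than the depth of the well. Alpha-, endothelial- and macrophage-like wells of 500 to under 1000 UMIs had a median of 11 insulin UMIs, those under 2000 had 13, those under 4000 had 13, and deeper ones 18. Median depth rose from 700 to 5077 UMIs over the same groups. The median insulin share thus went from 1.63% down to 0.303%, while the summed share was 1.49%, 0.978%, 0.450% and 1.00%. The classes differ in depth, with medians of 777.5 UMIs in endothelial-like, 1429 in macrophage-like and 3471.5 in alpha-like wells. Depth and class are thus not separated in these groups, and their parts were not tested. Delta-like wells of the same 4 depth groups had medians of 7, 9, 13 and 25 insulin UMIs, at median depths from 873 to 4955.5 UMIs. Over all wells low in insulin, the Spearman rho of insulin UMIs with UMIs of other genes had a median of 0.433 over 6 plates (0.287 to 0.545). Wells of 100 to under 500 UMIs held a median of 9.5 insulin UMIs, and wells under 100 held a median of 4.5. In the latter, insulin took 11.4% of UMIs summed over wells and 11.9% in the median well, which would pass the insulin threshold. In beta-like wells the count followed depth more closely, with a slope of 0.76 to 0.98 on the log-log scale against UMIs of other genes. The correlation of insulin UMIs with UMIs of other genes had a median Spearman rho of 0.810 over 6 plates (13 to 284 wells each). The shares moved with depth on some plates. With the beta-like wells of a plate split into 3 parts by depth, the shallowest part had 24.5% insulin and the deepest 25.7% on sham 3, and 15.95% and 14.4% on ppx 3. On ppx 1, with 13 wells, insulin went from 36.7% to 28.8% and Ins2 from 23.2% to 17.0%. On sham 1, with 19 wells, Iapp went from 6.45% to 4.99%.

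**Figure D3:**
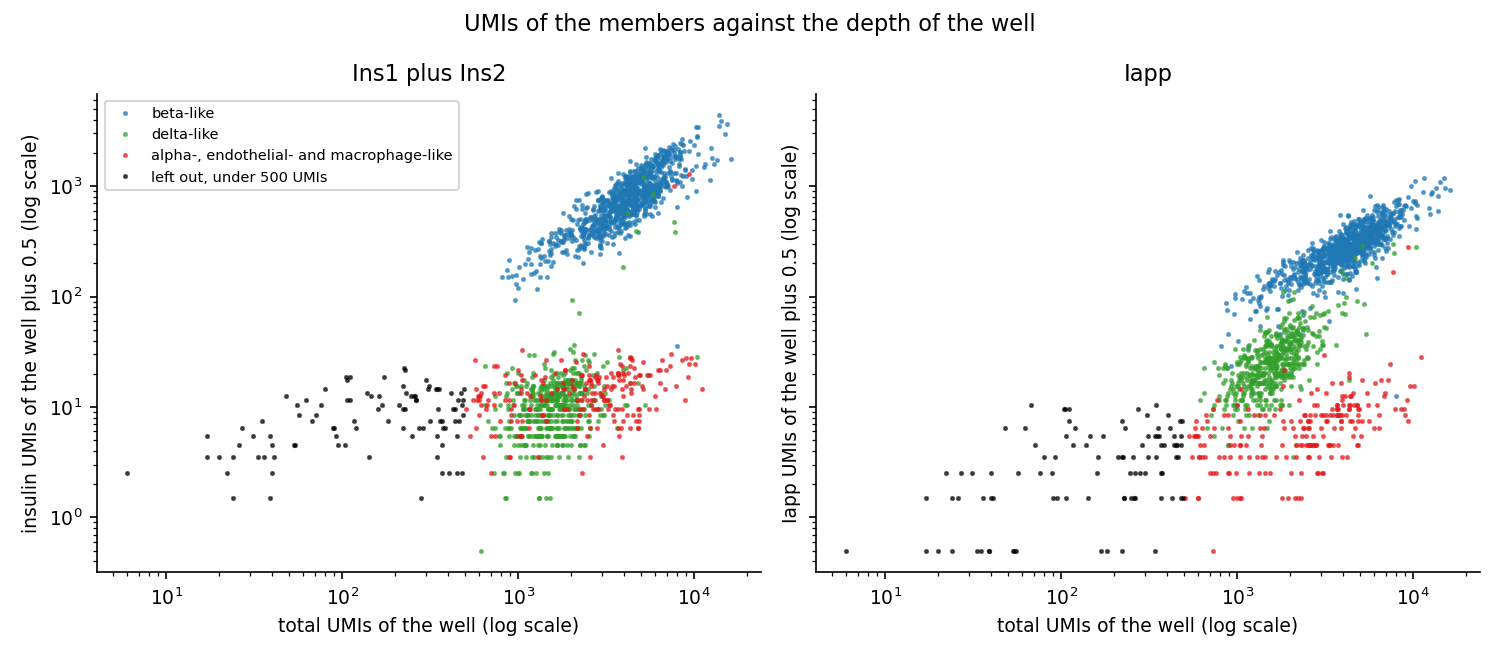
Insulin UMIs (left) and Iapp UMIs (right) of each well plus 0.5 against its total UMIs, both axes on a log scale, by class of well. Beta-like wells rise with depth for both; the other classes shown have medians of 7 to 25 insulin UMIs from 500 UMIs upward, and delta-like wells rise with depth for Iapp, from a median of 13 to 122 UMIs.

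Iapp stood apart from insulin in delta-like wells. It took 1.91%, 2.10% and 1.57% of their UMIs after sham and 1.61%, 1.29% and 1.66% after ppx, 13.8 to 23.8% of the level in beta-like wells per UMI of other genes. Insulin reached 1.58 to 5.38% of the beta-like level in the same wells. Had the insulin UMIs of these wells come with Iapp in the ratio of the plate's beta-like wells, 745, 552, 51.7, 698, 35.4 and 25.8 Iapp UMIs would be present on sham 1 to 3 and ppx 1 to 3. The counts were 6793, 2446, 536, 5659, 167 and 307, which is 4.43 to 11.9-fold as many. In endothelial-like wells the same ratio was 1.04 to 1.80, in macrophage-like wells 1.31 to 1.79 and in alpha-like wells 1.24 to 3.51. Its median rose with depth in delta-like wells, from 13 UMIs at 500 to under 1000 total UMIs to 22.5, 38 and 122 in deeper groups, and the share stayed at 1.65%, 1.67% and 1.75% below 4000 UMIs. The deepest group held 14 wells and reached 2.79%, with insulin at 5.17%; 10 of the 508 delta-like wells were high in insulin. After thinning to 500 UMIs, 99.8% of delta-like wells had an Iapp UMI (mean 8.50), against 66.7% of alpha-like (1.26), 88.5% of endothelial-like and 88.9% of macrophage-like wells.

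The planned test set wells high in somatostatin alone against wells high in glucagon alone, classes chosen without Iapp and held to the same insulin threshold. Per UMI of genes other than these 3, Iapp was 8.99-fold higher in the former (7.50 to 9.89-fold on the plates, log2 difference 3.17 ± 0.226, SD, n = 3 plates, all sham). The exact sign-flip p of 0.25 is the smallest that n = 3 plates can give. Median depths on sham 1 to 3 were 1446, 1525 and 2019 UMIs in Sst-only and 3701, 3419 and 2866.5 in Gcg-only wells. The part of this depth difference in the fold was not tested. Against wells high in no hormone Iapp was 6.19-fold higher (log2 difference 2.63 ± 0.715, SD, n = 5 plates, higher on 5 of 5, exact sign-flip p = 0.0625, the smallest possible). Delta-like against alpha-like clusters, a comparison added after seeing the data, gave all 6 plates: 6.42-fold (2.27 to 11.7-fold), log2 difference 2.68 ± 0.913 (SD, n = 6, higher on 6 of 6, exact sign-flip p = 0.0313, the smallest possible). The lowest ratio was on ppx 1, where the alpha-like class held insulin at 2.95% of its UMIs. Insulin was below its threshold in the single-hormone classes by choice, at 0.347 to 0.777% of UMIs in Sst-only wells.

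Wells high in Ppy alone, which is the hormone of another endocrine cell of the islet, held little Iapp in the median well: 0.178%, 0.222% and 0.144% of UMIs after sham and 0.160%, 0.274% and 0.166% after ppx. Summed over wells, Iapp took 1.52%, 0.915% and 0.200% of their UMIs on the sham plates (5, 5 and 9 wells) and 0.175%, 0.474% and 0.203% on the ppx plates (7, 22 and 14 wells). The higher sums on sham 1 and sham 2 stand far above their median wells and rest on 5 wells each. Insulin in these wells lay between 0.243% and 0.554%.

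In delta-like wells the operation was tested over 974 genes. EdgeR called 0% of them, no gene in either direction, and DESeq2 called none; 37 genes in edgeR and 6 in DESeq2 had an unadjusted p under 0.05. Iapp stood at 22652, 25104 and 15005 CPM on the sham and 20382, 9000 and 13902 CPM on the ppx plates (-0.24 ± 0.20, SE, edgeR adjusted p = 0.999). Ins1 stood at 6192, 8211 and 3611 against 4977, 2749 and 1993 CPM (-0.59 ± 0.23, edgeR adjusted p = 0.999), one of the genes with an unadjusted p under 0.05. Ins2 stood at 5742, 11700 and 2883 against 8100, 1347 and 453 CPM (-0.81 ± 0.44, edgeR adjusted p = 0.999). Sham 3, ppx 2 and ppx 3 rest on 17, 7 and 9 wells. Ins2 passed without ppx 1 (-2.25, edgeR adjusted p = 0.0149) and without sham 3 (-1.13, adjusted p = 0.00135), beside an Ins2 share that also followed the plate in wells with no known insulin expression. The part of that background in the Ins2 values of delta-like wells was not tested. Of the lists, 4 regulators, 13 granule genes and 1 receptor gene were tested, none passed or had an unadjusted p under 0.05 in either tool, and the medians were 0.04, -0.08 and 0.14 beside -0.01 over all genes.

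**Figure D4:**
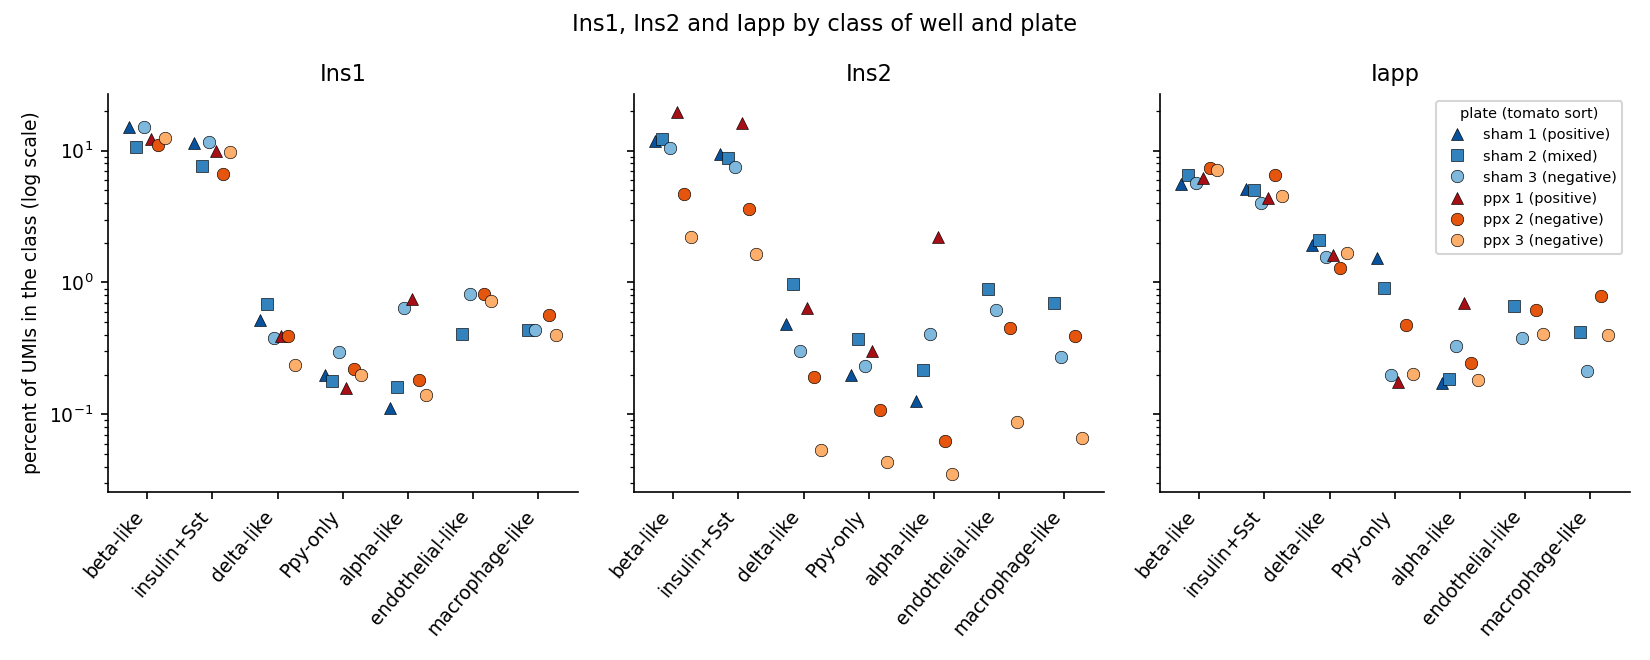
Ins1, Ins2 and Iapp (panels) as percent of the UMIs of a class of wells on each plate (y axis, log scale), by class (x axis); colours mark plates and shapes the tomato sort. Ins2 spreads between plates in every class, and Iapp in delta-like wells, 1.29 to 2.10%, lies above its level in alpha-like wells, 0.174 to 0.702%.

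Wells high in both insulin and somatostatin, which the title of the series points to as candidate beta-delta pairs, carried insulin at 70.3%, 64.6% and 67.3% of the beta-like level after sham and at 72.5%, 60.1% and 71.2% after ppx. These were 49, 20 and 3 wells and 66, 6 and 4 wells. Iapp stood at 83.0%, 70.3% and 63.0% of the beta-like level after sham and at 63.6%, 82.2% and 59.4% after ppx. Iapp UMIs were 0.834 to 1.37 times those expected from their insulin UMIs at the beta-like ratio. Their Ins2 share was 45.2%, 53.7% and 39.3% after sham and 62.1%, 35.4% and 14.6% after ppx, again that of the plate within 5.48 points.

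From well to well within a plate the insulin genes moved together more closely than either did with Iapp. In beta-like wells, per UMI of other genes, the Spearman rho of Ins1 with Ins2 had a median of 0.759 over 6 plates (0.674 to 0.779). For Ins1 with Iapp it was 0.330 (0.154 to 0.401) and for Ins2 with Iapp 0.227 (-0.005 to 0.351). Over all kept wells, where beta-like and other wells are mixed, the medians were 0.827, 0.680 and 0.682. In wells high in Sst, or in Sst and Ppy, but low in insulin, Ins1 with Ins2 stood at 0.395, Ins1 with Iapp at 0.104 and Ins2 with Iapp at 0.050. Wells of a plate share its library and background, and all values share a denominator, so these are descriptions without a test.

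**Figure D5:**
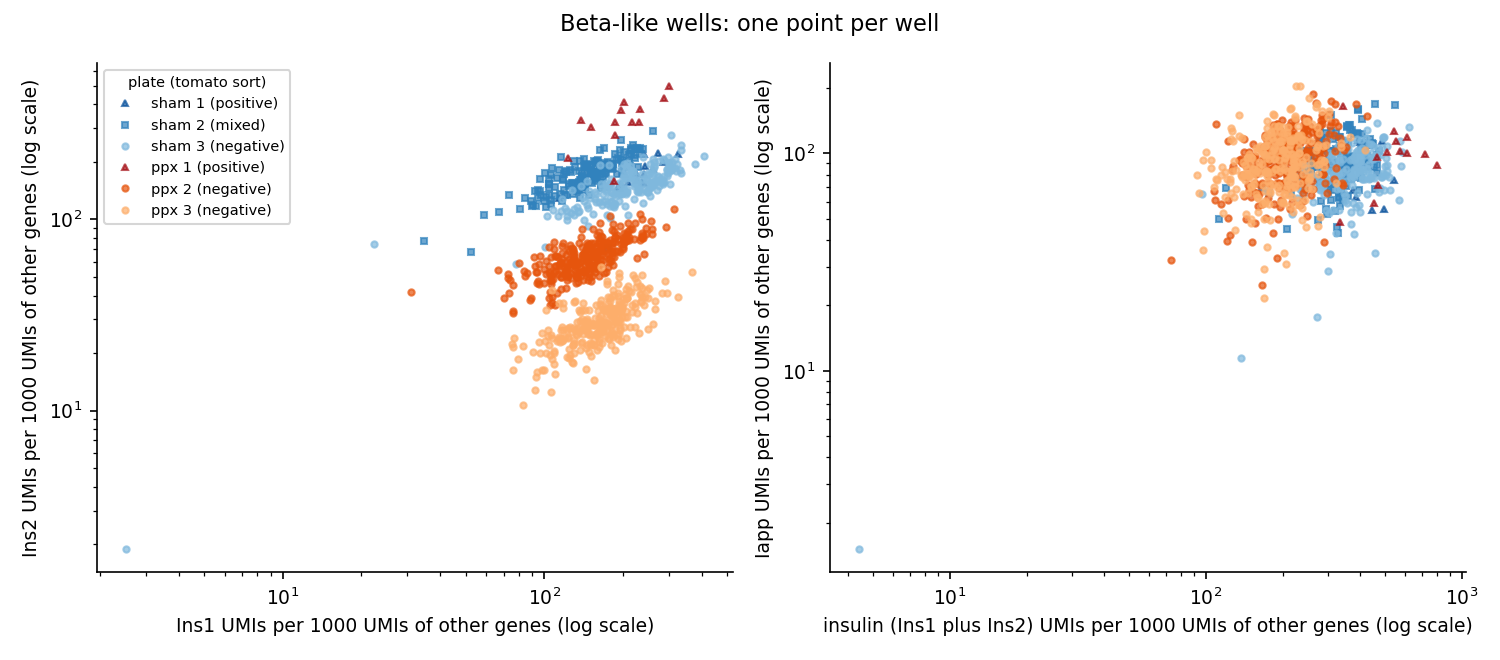
Beta-like wells, one point per well: Ins2 against Ins1 (left) and Iapp against insulin (right), each as UMIs per 1000 UMIs of other genes on log axes, coloured by plate. On the left the plates form parallel bands, with ppx 3 lowest and ppx 1 highest; on the right the bands overlap in Iapp, and the median rho of insulin with Iapp within a plate was 0.275.

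The genes most like the members over wells were taken by mean Spearman rho within plates, among 4499 genes with a UMI in at least 10% of 2115 kept wells. For Ins1 and Ins2 the 5 highest were the same: G6pc2, a glucose-6-phosphatase of the islet (0.646 and 0.638), Ero1lb, an oxidase of disulfide formation (0.631 and 0.623), Bace2, Chga and Ucn3. For Iapp they were G6pc2 (0.639), Scg2, a granin of secretory granules (0.638), Ucn3, Ero1lb and Bace2. Over all kept wells these values mix beta-like and other wells. Within 954 insulin-only wells of 4 plates the values were weak: Cpe, the carboxypeptidase that trims prohormones, led for Ins1 (0.301) and Ins2 (0.331), and Scg2 for Iapp (0.226).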

How the data were processed

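Each plate came as a deposited table of UMI counts, wells in columns, without normalization by the authors. The submitters' processing notes name HISAT 0.1.6 and mm10. Which counter was used, and how it treated reads that fit both insulin genes, is not given in the sources used here. In all, 92 spike-in rows held 3 UMIs and were left out.

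Wells with under 500 UMIs (96) or over 20% mitochondrial UMIs (93) were left out, and no doublets were removed. Clusters (scanpy 1.11.5, Leiden resolution 1, 2000 variable genes, 20 components, 15 neighbours) were made without Ins1, Ins2 and Iapp, also in the scaling totals, and were named from fixed markers. UMIs were summed per class and plate, over plates with at least 10 beta-like or 5 delta-like wells. They were tested in edgeR 4.0.16 by its quasi-likelihood test (TMM scaling, filterByExpr, adjusted p under 0.05). A check on simulated counts gave every gene the same dispersion, so it does not cover genes that vary between plates as Ins2 does. The SE beside an edgeR change is its size divided by the square root of the F statistic of the edgeR test, not a fitted SE. DESeq2 1.42.0 was the second tool. Ratios were tested by exact permutation or sign flips over plates. Shares of wells or UMIs have 95% Clopper-Pearson intervals. Named list genes are those past the threshold, otherwise up to 3 with the smallest p, and a few of these are given. The members and the lists were chosen with earlier results of these data known. No label ties the replicate numbers of sham and ppx plates to each other, though sham 1 and ppx 1 are both tomato-positive.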

Additional observations from a re-analysis of the deposited data

Results flagged for a closer look

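In beta-like wells the difference between ppx and sham pointed opposite ways in the tomato sorts. The Ins2 share of insulin UMIs was higher after ppx by 17.9 points between the tomato-positive plates (1 plate against 1), and between the tomato-negative plates (ppx 2 and ppx 3 against sham 3) the difference was -18.5 points. For insulin as a percent of UMIs the differences were 5.09 and -10.1 points. The difference between the sorts in these ratios was not tested. In edgeR, on the counts, the interaction was 2.45 ± 0.76 (SE) for Ins2, with an adjusted p of 0.778.

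Wells that the depth filter leaves out carried these genes as well. Over the 96 wells under 500 UMIs, insulin took 3.94% of 20162 UMIs and Iapp 1.49%, where 3 UMIs would be 0.0149%.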

How the results depend on the processing

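Over all named genes and comparisons, 461 alternative values kept direction and side of the threshold or, for counts of called genes, stayed close to the main count. The 16 that moved further were all counts of called genes. Another 16 values turned sign, 11 newly passed the threshold and 6 no longer passed it. The 461 include 11 alternatives of each of the 4 ratios by operation, whose exact p cannot go below 0.1, so only their direction could change. Sign flips over fewer than 6 plates cannot pass 0.05 either. Genes called for the operation in beta-like wells numbered 49, and 2 in DESeq2, 21 without the tomato-positive plates, 25 in insulin-only wells and 28 to 52 leaving out each plate. For the tomato sort there were 9, and 3 in DESeq2, 0 without the count filter (514 unadjusted) and 0 to 13 leaving out each plate. In delta-like wells 0 became 0 to 4 leaving out each plate. Leaving out each plate, the operation's change in beta-like wells ranged from -1.79 to 0.12 for Ins2 and -0.36 to 0.051 for Igf1r. The tomato difference ranged from -0.065 to 0.19 for Ins1 and -1.20 to 0.64 for Ide, and the operation's change in delta-like wells from -0.033 to 0.24 for Isl1. Signs also turned for the tomato sort with Iapp in DESeq2 (0.0054), Ins1 without the filter (-0.042), and Irs1 (0.049) and Isl1 (0.18) in insulin-only wells. They turned for the operation in delta-like wells with Irs2 in DESeq2 (-0.054) and without the filter (-0.00091), Isl1 without the filter (-0.0075), and Iapp (0.21), Ins2 (0.060) and Isl1 (-0.38) in Sst-only wells. None of these turned values passed. The tomato call of Ins2 was also lost without the filter (1.51, edgeR adjusted p = 0.917) and in insulin-only wells (1.61, adjusted p = 0.175). With hormone thresholds raised by a factor of 2, more plates entered. Iapp in Sst-only wells then exceeded Gcg-only wells by 2.97 and hormone-low wells by 2.04 on the log2 scale (exact sign-flip p = 0.0313 each, n = 6 plates). Delta-like against alpha-like clusters, which use no hormone threshold, gave 2.68 over 6 plates. With a replicate block Ins2 stood at -1.03 in beta-like wells (edgeR adjusted p = 7.9e-13, beside 0.762 without), Pam passed (0.56), and 61 genes were called, and in delta-like wells 1 gene was. Deviations of same-numbered plates correlated at 0.003, 0.022 and -0.014 in beta-like wells, against -0.015 to 0.010 for plates of different numbers. In delta-like wells they correlated at 0.024, 0.065 and 0.073, against -0.077 to 0.008. All are weak, and no label pairs the plates. Sham 1 and ppx 1 are both tomato-positive, so the block also holds part of the tomato sort. The cause of these changes was not tested. The smallest exact p for 3 plates against 3 is 0.1, and 13 and 19 beta-like wells stand behind the tomato-positive plates.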
